A study of Mus musculus with 9 samples.

Results

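The genes described are 8 receptors of the tumour necrosis factor (TNF) receptor superfamily, Tnfrsf18, Tnfrsf4, Tnfrsf9, Tnfrsf1a, Tnfrsf1b, Tnfrsf25, Cd27 and Fas, and the receptor adaptor Traf1. They were chosen by name, and their rows make up 9 of the 34092 gene rows in the count table. In GRCm38 the genes Tnfrsf18, Tnfrsf4, Tnfrsf9, Tnfrsf1b and Tnfrsf25 lie on chromosome 4, Tnfrsf1a and Cd27 on chromosome 6, Fas on chromosome 19 and Traf1 on chromosome 2. RNA was sequenced from regulatory T cells (Treg cells, which depend on the transcription factor Foxp3), isolated from mice, sorted and taken in the resting state. WT mice carried the reporter allele Foxp3gfp, and CNS2KO mice carried the allele Foxp3deltaCNS2-gfp, so both groups carry a green fluorescent Foxp3 reporter and the groups differ in CNS2, a conserved noncoding element inside Foxp3 known for keeping the gene on in dividing Treg cells. The sources used here do not give age, sex, strain background or organ of origin, nor whether samples came from separate animals. The labels list 6 WT and 3 CNS2KO samples. The number 407 occurs in both groups and its 2 columns were identical, so 5 WT libraries (398, 402, 405, 1032 and 1037) and 2 CNS2KO libraries (399 and 408) were compared. P-values measure the spread between these libraries, which may be technical.

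Receptors of this family bind trimeric ligands of the TNF family on other cells. Receptors without a death domain, such as GITR, OX40, CD27 and TNFR2, recruit TRAF adaptors that lead to NF-kB, and Treg cells are known for high GITR, OX40 and TNFR2 on their surface, where these receptors act as costimulators. Receptors with a death domain, such as Fas, TNFR1 and DR3, can in addition recruit adaptors that lead to caspase activation.

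The 3 promoters shown are those of Fas, the one member whose groups did not overlap, and of the chromosome 4 neighbours Tnfrsf4 and Tnfrsf18, which were both lowest in WT 405 and highest in CNS2KO 399. Each runs 5′ to 3′ over 250 bases before and 50 bases after an annotated start in RefSeq's GRCm38.p6. Capitals mark matches on either strand to GGGNNNNNCC, a loose form of the NF-kB site, in which overlapping matches run together.
Fas, plus strand, chr19:34290409-34290708: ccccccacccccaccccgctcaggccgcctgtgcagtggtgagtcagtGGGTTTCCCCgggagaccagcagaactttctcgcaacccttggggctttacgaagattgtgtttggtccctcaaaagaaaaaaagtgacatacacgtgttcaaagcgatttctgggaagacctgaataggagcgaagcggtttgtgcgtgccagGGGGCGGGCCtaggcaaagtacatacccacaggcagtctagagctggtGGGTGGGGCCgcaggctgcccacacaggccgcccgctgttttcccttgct
Tnfrsf4, plus strand, chr4:156013445-156013744: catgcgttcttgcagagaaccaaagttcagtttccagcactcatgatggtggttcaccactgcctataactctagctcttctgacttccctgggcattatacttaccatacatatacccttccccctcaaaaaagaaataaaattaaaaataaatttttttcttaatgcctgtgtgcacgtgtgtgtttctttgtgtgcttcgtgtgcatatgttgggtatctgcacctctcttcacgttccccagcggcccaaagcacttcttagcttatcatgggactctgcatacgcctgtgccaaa
Tnfrsf18, plus strand, chr4:156026072-156026371: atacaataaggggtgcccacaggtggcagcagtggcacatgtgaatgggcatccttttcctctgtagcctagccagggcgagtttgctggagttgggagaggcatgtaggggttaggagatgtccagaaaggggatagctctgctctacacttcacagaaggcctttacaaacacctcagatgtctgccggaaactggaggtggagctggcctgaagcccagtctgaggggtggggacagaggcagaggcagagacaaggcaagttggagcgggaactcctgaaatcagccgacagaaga
The Fas window held 3 such matches, and the windows of Tnfrsf4 and Tnfrsf18 held 0 each. Of all 32851 promoters in the table, 50.8% held a match, as did 7 of the 11 windows listed for the 9 genes. The GC box GGGCGG, searched on both strands and sharing letters with the first motif, occurred in 35.7% of all promoters and 2 times in the Fas window. The letters TATAAA occurred in 13.6% of all promoters and in 0 of the 11 windows. The Fas window was 59.0% G or C, that of Tnfrsf18 55.3% and that of Tnfrsf4 43.7%. The reads were aligned to mm9, per the submitters' processing notes, so these coordinates are not those of the study's own build.

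Reads on genes ranged from 16557424 to 21836578 per library. Foxp3 stood at 410 to 607 CPM (gene reads relative to the library's reads on genes, scaled by the TMM method) in WT and at 464 and 441 CPM in CNS2KO 399 and 408. CNS2 is noncoding, so this does not check the genotype. Of the Treg and T cell marker list, 15 of 16 genes had a row and all 15 were read, with Il2ra, which encodes CD25, at 1563 to 2193 CPM and the adhesion receptor Cd2 at 1094 to 1597 CPM. The libraries differed in how transcript length related to level. Over 4852 genes with a mean log2 CPM of at least 5 and a known exonic length, the median of genes over 5 kb minus that of genes up to 1.5 kb, each against the mean of the 7 libraries, was -0.48 on the log2 scale in CNS2KO 399, -0.32 in WT 1037 and -0.23 in WT 402. It was 0.12 in WT 405, 0.14 in CNS2KO 408, 0.37 in WT 398 and 0.39 in WT 1032. CNS2KO 399 thus had the highest short genes and lowest long genes of all 7 libraries.

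**Figure D1:**
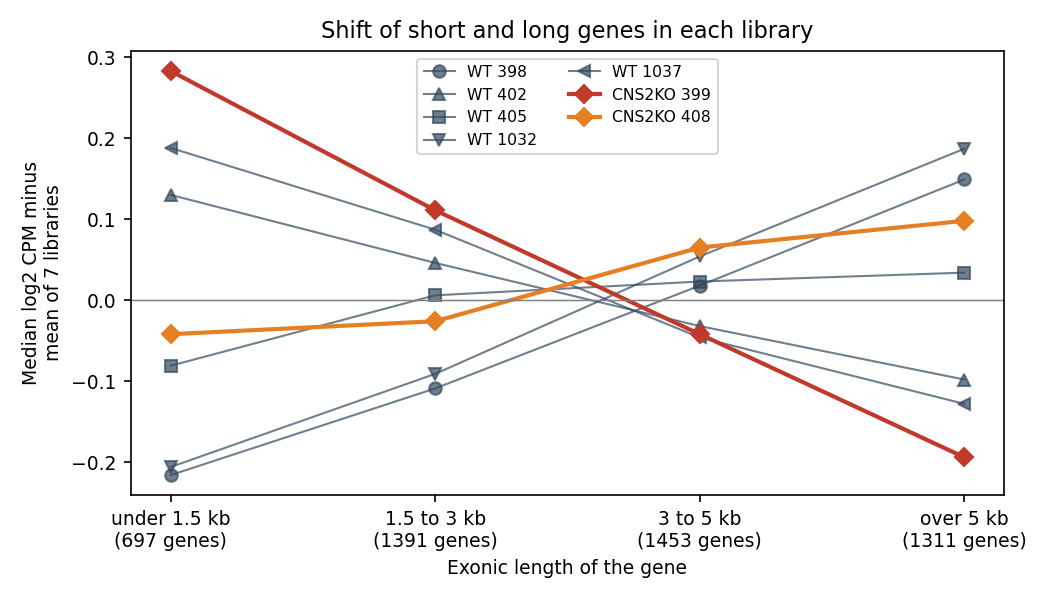
Median log2 CPM of each length class in each library, as the difference from that gene's mean over 7 libraries (y axis), against exonic length class (x axis). Lines are libraries; CNS2KO 399 runs from 0.28 for genes up to 1.5 kb to -0.19 for genes over 5 kb, and WT 1032 the other way, from -0.21 to 0.19.

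In all 7 libraries Tnfrsf4 had the highest and Tnfrsf1a the lowest level per kilobase of exon among the 9 genes. Mean levels over the 7 libraries were 439.5 ± 53.6 CPM per kb for Tnfrsf4 (SD, n = 7), 316 ± 50.7 for Tnfrsf18 and 273 ± 25.9 for Cd27. Fas followed at 118 ± 36.0 CPM per kb and Tnfrsf9 at 85.6 ± 15.6. Traf1 stood at 41.8 ± 3.41 CPM per kb, Tnfrsf25 at 38.4 ± 5.05, Tnfrsf1b at 27.7 ± 9.01 and Tnfrsf1a at 11.7 ± 3.27. Tnfrsf4 lay above Tnfrsf18 in 7 of 7 libraries, although their ranges met. The neighbours Tnfrsf18 and Cd27, Fas and Tnfrsf9, Traf1 and Tnfrsf25, and Tnfrsf25 and Tnfrsf1b each kept their order in 6 of 7 libraries, with ranges that overlapped. Clear steps without overlap lay between Cd27 and Fas and between Tnfrsf9 and Traf1. Exonic lengths are from GENCODE M21, and the gene models counted by the authors may differ.

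**Figure D2:**
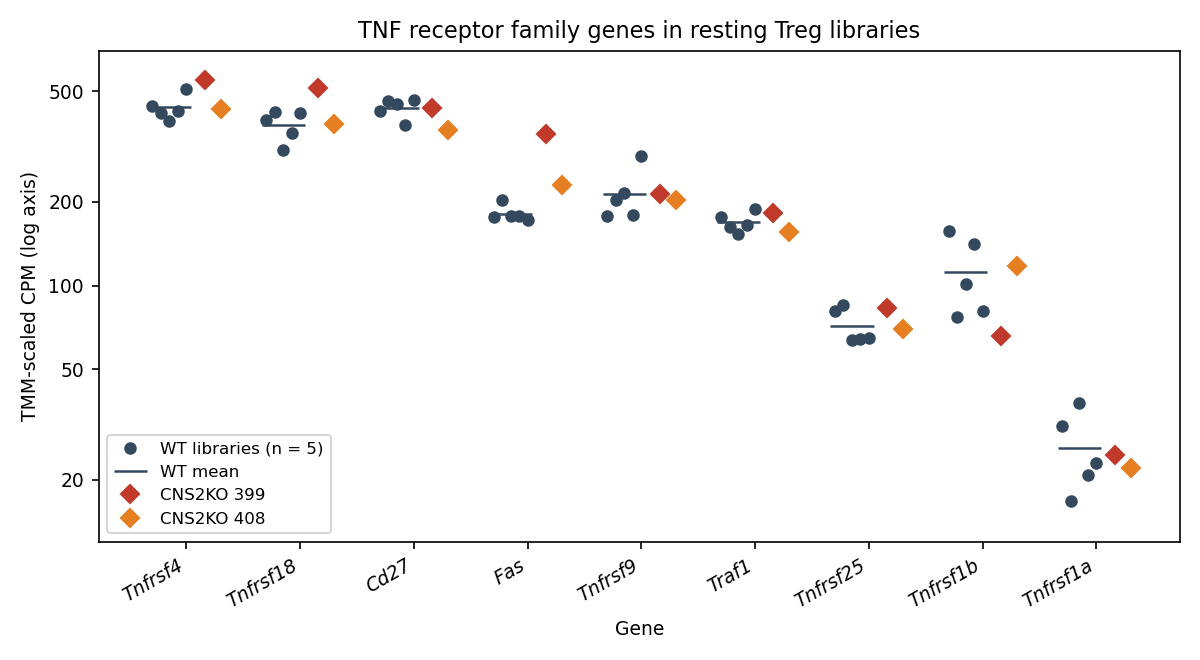
TMM-scaled CPM (log axis) of the 9 genes in each library, ordered by level per kilobase: circles are the 5 WT libraries, lines their mean and diamonds the CNS2KO libraries. Fas is the one gene with both diamonds above every circle, at 352 and 229 CPM against at most 204 in WT.

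Among the costimulatory receptors, Tnfrsf4, which encodes OX40, stood at 444, 419, 391, 427 and 508 CPM in WT 398, 402, 405, 1032 and 1037, and at 548 and 433 CPM in CNS2KO 399 and 408. CNS2KO 399 was the highest library and CNS2KO 408 lay inside the WT range. WT averaged 438 ± 43.7 CPM (SD, n = 5) and CNS2KO averaged 490 ± 81.7 CPM (SD, n = 2). This gave a log2 fold change, CNS2KO minus WT, of 0.16 (SE 0.16, 95% interval -0.19 to 0.52), which did not pass (edgeR's quasi-likelihood test with Benjamini-Hochberg adjustment over all genes, adjusted p = 1). Without CNS2KO 399 it was -0.012. In bulk RNA, a different share of cells with a transcript and a different amount per cell cannot be told apart.

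Tnfrsf18, which encodes GITR and lies next to Tnfrsf4, stood at 395, 420, 308, 355 and 419 CPM in WT 398, 402, 405, 1032 and 1037, and at 513 and 380 CPM in CNS2KO 399 and 408. Again CNS2KO 399 lay above and CNS2KO 408 within the WT range. Its log2 fold change was 0.24 (SE 0.18, 95% interval -0.16 to 0.63; adjusted p = 1 by edgeR's quasi-likelihood test) and was 0.007 without CNS2KO 399. Tnfrsf18 and Tnfrsf4 are the shortest of the 9 genes, with 1260 and 1030 exonic bases, and their length class stood 0.28 above its mean in CNS2KO 399 on the log2 scale, where Tnfrsf18 stood at 0.38 and Tnfrsf4 at 0.28. With a transcript length offset per library, the log2 fold changes were 0.092 for Tnfrsf18 and 0.005 for Tnfrsf4. An antisense transcript, Gm16008, is annotated across Tnfrsf18, and the sources used here do not say whether counting used strand.

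Tnfrsf9, which encodes the activation-induced receptor CD137, stood at 179, 204, 216, 179 and 294 CPM in WT 398, 402, 405, 1032 and 1037, and at 215 and 204 CPM in CNS2KO 399 and 408. WT 1037 was the highest library, and both CNS2KO libraries lay within the WT range. CNS2KO minus WT came to -0.034 on the log2 scale (SE 0.21, 95% interval -0.49 to 0.43), or 0.107 without WT 1037. The gene Camta1 overlaps Tnfrsf9 on the opposite strand and was read at 12.2 to 19.1 CPM.

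Cd27, a costimulatory receptor of resting and memory T cells, stood at 424, 460, 450, 378 and 467 CPM in WT 398, 402, 405, 1032 and 1037, and at 436 and 363 CPM in CNS2KO 399 and 408. CNS2KO 408 was the lowest library, just under WT 1032. Its log2 fold change was -0.12 (SE 0.16, 95% interval -0.47 to 0.22), or -0.26 without CNS2KO 399 and -0.005 without CNS2KO 408. Vamp1 overlaps Cd27 on the opposite strand and was read at 24.6 to 50.5 CPM.

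Tnfrsf25 encodes DR3, a death domain receptor that is also a costimulator of Treg cells. It stood at 80.7, 85.3, 63.5, 64.4 and 64.8 CPM in WT 398, 402, 405, 1032 and 1037, and at 83.1 and 69.9 CPM in CNS2KO 399 and 408. WT spanned a range that held both CNS2KO values, with a log2 fold change of 0.093 (SE 0.21, 95% interval -0.36 to 0.55).

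The receptors for TNF itself varied most. Tnfrsf1b, which encodes TNFR2, stood at 157, 77.2, 101.2, 141 and 80.8 CPM in WT 398, 402, 405, 1032 and 1037, and at 66.0 and 118 CPM in CNS2KO 399 and 408. The low libraries were CNS2KO 399, WT 402 and WT 1037, which are also those in which long genes stood low. Whether the 2 are linked was not tested. The WT libraries alone differed 2.04-fold between highest and lowest. Its log2 fold change was -0.28 (SE 0.32, 95% interval -0.98 to 0.43; adjusted p = 1 by edgeR's quasi-likelihood test). It was 0.086 without CNS2KO 399 and -0.77 without CNS2KO 408. Tnfrsf1b has 3818 exonic bases, and its length class moved from -0.046 to 0.065 between libraries on the log2 scale, against -0.62 to 0.64 for Tnfrsf1b. With the length offset its log2 fold change was -0.30.

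Tnfrsf1a, which encodes TNFR1, the death domain receptor found on most cells, stood at 31.3, 16.8, 37.7, 20.9 and 23.0 CPM in WT 398, 402, 405, 1032 and 1037, and at 24.5 and 22.1 CPM in CNS2KO 399 and 408. WT spanned 2.24-fold and held both CNS2KO values. CNS2KO minus WT came to -0.16 on the log2 scale (SE 0.33, 95% interval -0.88 to 0.57). On the log2 scale the SD over WT libraries was 0.46 for Tnfrsf1a and 0.46 for Tnfrsf1b, above the median of 0.25 over 5292 genes with a mean log2 CPM of at least 5. Tnfrsf9 was also above it, at 0.29, and the other 6 genes were below it, with Fas lowest at 0.097.

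**Figure D3:**
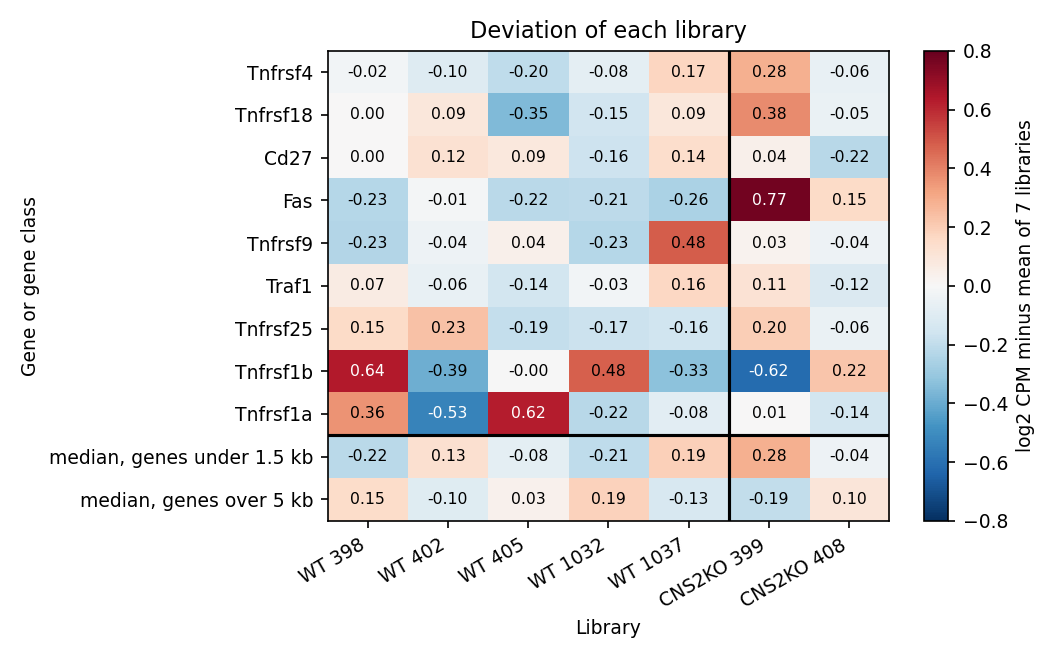
Log2 CPM of the 9 genes in each library as the difference from the mean of 7 libraries (colour and printed value), with the medians of genes up to 1.5 kb and over 5 kb below. Tnfrsf1b is at -0.62 in CNS2KO 399 and 0.64 in WT 398, and Fas at 0.77 in CNS2KO 399.

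Fas, the death receptor that limits lymphocyte numbers, was the member with the largest difference between genotypes. It stood at 176, 204, 177, 178 and 173 CPM in WT 398, 402, 405, 1032 and 1037, and at 352 and 229 CPM in CNS2KO 399 and 408. Both CNS2KO libraries lay above every WT library, and 4 of the 5 WT libraries lay within 173 to 178 CPM. WT averaged 182 ± 12.7 CPM (SD, n = 5) and CNS2KO 291 ± 86.8 CPM (SD, n = 2). The difference was 0.68 on the log2 scale (SE 0.18, 95% interval 0.28 to 1.08), or 1.60-fold. It ranked 12 of 14424 genes by edgeR's unadjusted p of 0.00324 and did not pass adjustment over all genes (adjusted p = 1). With 21 ways to assign the libraries, 0.048 is the lowest p a two-sided exact permutation test can reach, and Fas was at it. The size rested more on CNS2KO 399: without it the log2 fold change was 0.34 (edgeR's unadjusted p = 0.127), and without CNS2KO 408 it was 0.95 (adjusted p = 0.0876 by edgeR's quasi-likelihood test), in fits where only WT gave the spread. With the transcript length offset it was 0.57, and with WT libraries of 3-digit number only it was 0.65.

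Markers of other cells were also read. Of 8 erythroid markers 7 had a row and 5 could be tested, and all 5 had positive fold changes. Their summed level was 6.84 to 27.6 CPM in WT, 156 CPM in CNS2KO 399 and 31.4 CPM in CNS2KO 408, with Hbb-b1, beta globin, at 78.4 and 11.9 CPM and Hba-a1, alpha globin, at 28.9 and 7.51 CPM in CNS2KO 399 and 408. CD8 and NK cell markers summed to 68.7 to 82.8 CPM in WT, 87.8 in CNS2KO 399 and 68.2 in CNS2KO 408, over 9 genes with 5 of 7 tested fold changes positive, Cd8b1 and Nkg7 the most abundant, and Ncr1 at 0 in every library. Myeloid markers (12 of 13 genes with a row, 6 of 9 tested positive) summed to 65.5 to 93.8, 87.6 and 102.7 CPM, led by Cst3 and Csf1r. In 3 of those 9, both CNS2KO libraries lay above every WT library, against 3.76% of all genes. The same held for 1 of the 7 CD8 and NK cell and 1 of the 5 erythroid markers tested. B cell markers (11 genes, 2 of 10 tested positive) summed to 1074 to 1371, 1162 and 987 CPM, led by the immunoglobulin gene Ighm and by Cd79b. Over the tested genes of each list, the mean log2 difference from WT gives genes of low count the same weight. For CD8 and NK cell markers it was 0.85 and 0.84 in CNS2KO 399 and 408, against -0.34 to 0.38 in WT. It was 3.28 and 1.235 for erythroid (WT -1.11 to 1.04) and 0.36 and 1.26 for myeloid markers (WT -0.93 to 1.02). For B cell markers it was -0.29 and -0.46 (WT -0.38 to 0.27). The part of other cells in the Fas values was not tested.

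Traf1, an adaptor that binds the tails of several of these receptors together with Traf2, stood at 177, 162, 153, 166 and 189 CPM in WT 398, 402, 405, 1032 and 1037, and at 183 and 156 CPM in CNS2KO 399 and 408. Both CNS2KO libraries lay within the WT range. On the log2 scale the genotypes differed by -0.001 (SE 0.17, 95% interval -0.37 to 0.37).

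Of the 9 genes, 0 passed edgeR's quasi-likelihood test at a false discovery rate of 0.05, as did 0.0% of all 14424 genes tested. At an unadjusted p under 0.05 there was 1 of 9, against 2.5% of all genes, and 1 of 9 had groups that did not overlap, against 6.76% of all genes (3.76% with CNS2KO above, or 5.14% among genes with a mean log2 CPM of at least 5). DESeq2 and limma-voom also called 0 of 9, each with 1 at an unadjusted p under 0.05. Exact permutation p-values of the other 8 genes ranged from 0.286 to 1. Fold changes were positive in 4 and negative in 5, with a median of -0.001 beside a median of -0.026 over all genes. The intervals allow sizeable differences of either sign for several of them, up to about 0.98 lower on the log2 scale for Tnfrsf1b (interval from -0.98).

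**Figure D4:**
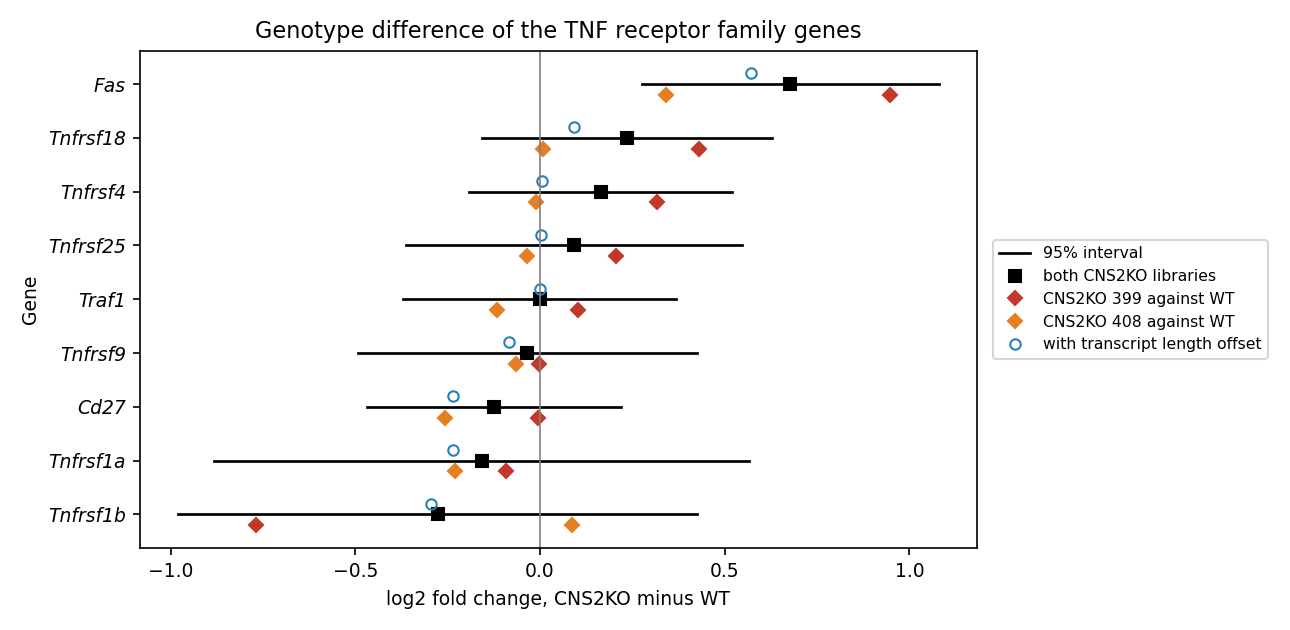
Log2 fold change, CNS2KO minus WT (x axis), of the 9 genes: squares with lines are the estimate and its 95% interval, diamonds the value of each CNS2KO library alone against WT, and open circles the estimate with a transcript length offset. The interval of Fas, 0.28 to 1.08, is the one that does not contain 0.

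The ligands of the same receptors were read in the same libraries at very different levels, and which cells they came from was not tested. Tnf stood at 12.6 to 16.2 CPM in WT and at 20.99 and 13.4 CPM in CNS2KO 399 and 408, and Lta, which encodes lymphotoxin alpha, another ligand of TNFR1 and TNFR2, at 76.1 to 130 CPM in WT and 93.8 and 96.2 CPM in CNS2KO. The partner of Lta in the membrane-bound form, Ltb, stood at 43.1, 36.1, 37.7, 24.7 and 14.9 CPM in WT 398, 402, 405, 1032 and 1037 and at 53.4 and 50.01 CPM in CNS2KO 399 and 408. Ltb thus had both CNS2KO libraries above every WT library (log2 fold change 0.73, SE 0.34, 95% interval -0.03 to 1.48; adjusted p = 1 by edgeR's quasi-likelihood test). With WT libraries of 3-digit number only it was 0.41. Ltb was chosen with its values known.

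Transcripts of the ligands of CD27, GITR, OX40, CD137 and DR3 were few. Cd70, the ligand of CD27, had 0 reads in all 7 libraries, where 3 reads would be 0.142 to 0.182 CPM. Tnfsf18, the GITR ligand, had 0 to 25 reads per library, and Tnfsf4, the OX40 ligand, 0 to 44. Tnfsf9, the CD137 ligand, reached 7.66 CPM and Tnfsf15, the DR3 ligand, 2.43 CPM. Fasl stood at 4.36, 10.8, 3.87, 1.46 and 8.54 CPM in WT 398, 402, 405, 1032 and 1037 and at 4.49 and 6.46 CPM in CNS2KO 399 and 408, so unlike Fas its groups overlapped. Of 18 ligand genes 11 could be tested, 0 passed in either direction, 6 were positive and 5 negative (median 0.16, or -0.088 without CNS2KO 399 and 0.091 without CNS2KO 408), and 1 had groups that did not overlap, against 6.76% of all genes. The most abundant were Lta (log2 fold change -0.11), Tnfsf8, the CD30 ligand (-0.25), and Tnfsf10, which encodes TRAIL (0.35, or 0.57 without CNS2KO 399 and 0.091 without CNS2KO 408).

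**Figure D5:**
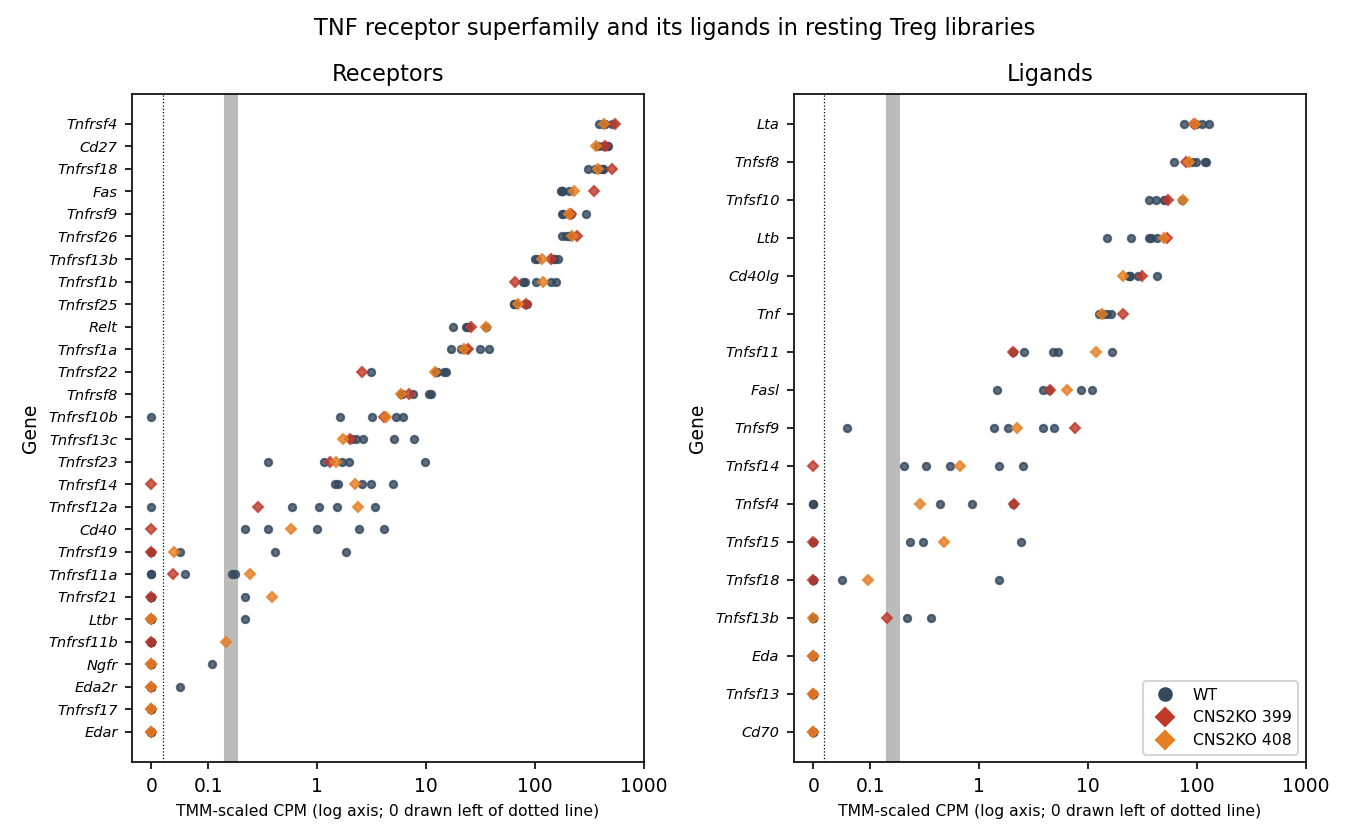
TMM-scaled CPM (log axis, 0 drawn at the left) of 28 receptors (8 described here and 20 others of the family) and 17 ligands in each library: circles are WT, diamonds CNS2KO, and the grey band is the level of 3 reads. Receptors Tnfrsf4, Cd27 and Tnfrsf18 lie at the top and Cd70 is at 0 throughout.

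Of 20 other receptors of the family 11 could be tested. In them 0 passed in either direction, 4 were positive and 7 negative (median -0.35), and 2 had groups that did not overlap, against 6.76% of all genes. That median was -0.19 without CNS2KO 399, -1.003 without CNS2KO 408 and -0.057 with WT libraries of 3-digit number only. These medians rest on genes of low count. The value -0.35 is that of Tnfrsf8, which averaged 7.73 CPM (SE of its log2 fold change 0.455), and -1.003 that of Tnfrsf13c, which averaged 3.35 CPM. Tnfrsf14 and Cd40 had 0 reads in CNS2KO 399. Tnfrsf17 and Edar had 0 reads. The receptor gene Tnfrsf26 stood at 55.3 to 74.8 CPM per kb, below the Fas range of 96.2 to 196, and its log2 fold change was 0.21. Tnfrsf13b, which encodes TACI, best known from B cells, stood at 39.2 to 63.8 CPM per kb, above Tnfrsf25 by mean. Not scaled by length, Tnfrsf13b stood at 100 to 163 CPM in WT and at 140 and 116 CPM in CNS2KO 399 and 408. The 11 B cell markers summed to 1074 to 1371 CPM in WT and to 1162 and 987 CPM in CNS2KO 399 and 408. Ighm alone made up 1309 of the 1371 CPM in WT 1037. The part of B cells in the Tnfrsf13b values was not tested. The log2 fold change of Tnfrsf13b was -0.06, and that of Relt 0.30, or 0.034 without CNS2KO 408 and 0.51 without CNS2KO 399. Tnfrsf8, which encodes CD30, stood at 1.73 to 3.22 CPM per kb.

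Downstream of the receptors, all 27 listed adaptors and ubiquitin enzymes were tested and 0 passed in either direction; 10 were positive and 17 negative (median -0.04). Groups did not overlap in 3 of 27, against the 6.76% of all genes. The most abundant were the caspase Casp8 (log2 fold change -0.10), the TRAF-binding kinase adaptor Tank (0.36) and the kinase Ikbkb (-0.09). Tank stood at 354 to 443 CPM in WT and at 452 and 557 CPM in CNS2KO 399 and 408, and its value was 0.20 without CNS2KO 408. Fadd, the adaptor that links Fas to Casp8, stood at 12.8, 15.5, 14.5, 16.8 and 15.7 CPM in WT 398, 402, 405, 1032 and 1037 and at 4.49 and 11.5 CPM in CNS2KO 399 and 408. Its log2 fold change was -0.91 (SE 0.41, adjusted p = 1 by edgeR's quasi-likelihood test), and it was -0.39 without CNS2KO 399 and -1.75 without CNS2KO 408. Tnfaip3, which encodes A20, a deubiquitinase that damps NF-kB, stood at 81.2 to 141 CPM in WT and at 78.4 and 73.7 CPM in CNS2KO (log2 fold change -0.57, SE 0.24, adjusted p = 1 by the same test). Fadd and Tnfaip3 were chosen with their values known. Cflar, which restrains caspase-8, stood at 0.011, and the TRAF2 partners Birc2 and Birc3 at 0.29 and -0.043 on the same log2 fold change scale. Leaving out CNS2KO 408 gave -0.088, 0.12 and -0.14 for Cflar, Birc2 and Birc3, and leaving out CNS2KO 399 gave 0.10, 0.45 and 0.045. Of 11 NF-kB subunits and inhibitors 0 passed, 3 were positive and 8 negative (median -0.13, or -0.30 without CNS2KO 399 and 0.075 without CNS2KO 408), with the inhibitor Nfkbia at 0.12 and the subunits Rela and Nfkb1 at -0.17 and -0.08. Nfkbia was -0.32 without CNS2KO 399 and -0.014 with the length offset.

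Genes whose pattern over the 7 libraries was nearest were ranked by the root mean square difference of centred log2 CPM, among genes with a mean log2 CPM of at least 5. Nearest to Tnfrsf18 were the ribosomal protein gene Rpl10 (0.072), Ubl3 (0.072) and Rpl27a (0.075). Nearest to Tnfrsf4 were Ube2l3 (0.063), Ndufab1 (0.064) and Folr4 (0.069), which encodes a folate receptor family protein of Treg cells. Nearest to Tnfrsf9 were Mkks (0.075), Dnajc15 (0.084) and Rabepk (0.084). With 1 library left out, 0 to 2 of the 3 genes were shared for Tnfrsf18 and 0 to 1 for Tnfrsf4 and for Tnfrsf9, so these lists describe these 7 libraries only. For the other 6 genes the ranking was added after values were seen. Nearest to Tnfrsf1b were Stk10 (0.081), the dynein heavy chain gene Dync1h1 (0.093) and Ogt (0.099). Nearest to Fas were the proteasome subunit gene Psmb3 (0.103), Ndufaf1 (0.104) and Gabpb1 (0.112), of which 0 to 3 were shared with 1 library left out. Nearest to Tnfrsf1a was Rnf31 (0.038), which stood at 49.98, 29.15, 59.8, 34.01 and 37.7 CPM in WT 398, 402, 405, 1032 and 1037 and at 39.7 and 36.1 CPM in CNS2KO 399 and 408. Next for Tnfrsf1a came Rnf214 (0.137) and Il7r (0.141). Rnf31 encodes a ubiquitin ligase subunit known from the TNFR1 complex, and was singled out with its values known. It ranked first for Tnfrsf1a with any 1 of the 7 libraries left out, but those rankings reuse the remaining libraries. The listed ubiquitin enzyme genes Rbck1 and Sharpin differed less between WT 402 and WT 405, at 53.4 and 51.3 CPM and at 42.7 and 57.3 CPM. The nearest genes of Cd27, Tnfrsf25 and Traf1 are not given here.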

How the data were processed

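Total RNA of sorted Treg cells went through SMARTer amplification and Proton library preparation, per the labels' protocols. The deposited table holds raw read counts by gene symbol. STAR, BWA, edgeR and mm9 are named, per the submitters' processing notes, without versions or roles; the sources used here do not give the counter or annotation. Left out were 5 summary rows and 2 columns numbered 407 (identical, though the labels give them different genotypes). Gene rows held 22.0 to 23.7% of a column's reads, the no-feature row 47.7 to 54.3%, and no pair of used libraries agreed within sampling noise (lowest chi-square per degree of freedom 36.6). In R 4.3.3, edgeR 4.0.16 (filterByExpr, TMM, two-sided quasi-likelihood test, Benjamini-Hochberg over all genes, false discovery rate 0.05) compared the genotypes, with checks on simulated data. SE was taken as log2 fold change divided by the square root of F. Log2 CPM used a prior count of 2. Floors of 3 reads cover counting error only. Alternatives were 2 other scalings, no filter, DESeq2 1.42.0, limma-voom (limma 3.58.1), WT of 3-digit number, a term for 1032 and 1037, each library left out, and, added after seeing the data, a loess length offset (span 0.5) on the 89.6% of tested genes with a GENCODE M21 length. The rule named every member, Foxp3, list members past the threshold (up to 4) or otherwise the 3 most abundant (2 for cell markers), and 3 nearest genes each of Tnfrsf18, Tnfrsf4 and Tnfrsf9, without clone names. The members' ligands, Ltb, Fadd, Tnfaip3, Cflar, Birc2, Birc3 and Tnfrsf8 are outside that rule and were chosen after values were seen. The same holds for Tnfrsf13c, Tnfrsf14, Cd40, Rbck1, Sharpin, Il10, Havcr2 and Ahr. Members and lists were chosen with earlier results of these data known. Promoters of all 9 genes were found by symbol. A gene named by this rule is not reported here.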

Additional observations from a re-analysis of the deposited data

Results flagged for a closer look

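Of 40 genes checked for a WT library standing far from the other WT libraries, 2 had one; about 1 in 20 would by chance. Fas stood at 204 CPM in WT 402, against 178 CPM in the next highest WT library. Without WT 402 the log2 fold change of Fas was 0.72. The immunoglobulin gene Ighm stood at 1309 CPM in WT 1037, against 1056 CPM in the next highest.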

How the results depend on the processing

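Of the 9 genes 0 were called under all 15 alternatives run. Over all genes 0 were called by each, but 8 once genes of low count were kept in. Of 450 values of 30 named genes under the alternatives, 28 had the opposite sign and 422 kept sign and side of the threshold. Signs turned with WT libraries of 3-digit number for Tnfrsf9 (0.070), Traf1 (0.046), Tnfrsf13b (0.123) and Nt5e (0.105), and with the term for 1032 and 1037 for Tnfrsf9 (0.069), Tnfrsf25 (-0.00), Traf1 (0.046), Tnfrsf13b (0.122) and Nt5e (0.105). Limma-voom gave Nt5e 0.002, and the length offset gave Traf1 0.001 and Nfkbia -0.014. With 1 library left out, ranges that crossed 0 were -0.012 to 0.318 for Tnfrsf4, -0.092 to 0.107 for Tnfrsf9, -0.279 to 0.016 for Tnfrsf1a, -0.768 to 0.086 for Tnfrsf1b, -0.034 to 0.205 for Tnfrsf25 and -0.117 to 0.102 for Traf1. They were -0.191 to 0.066 for Tnfrsf13b, -0.316 to 0.447 for Nfkbia, -0.196 to 0.002 for Nfkb1, -0.082 to 0.072 for Nt5e and -0.050 to 0.210 for Gata3. The causes were not tested. Fas ranged from 0.34 to 0.95 over all settings. The members' median ranged from -0.034 to 0.102 with 1 library left out. Both other scalings moved the median of all genes by -0.01. A left-out CNS2KO library leaves 1, assumed to vary like WT. No paired analysis was possible because the groups share only the number 407, which was not used. With 2 CNS2KO libraries the exact test cannot give less than p = 0.048.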

Other observations

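Of 30 listed effector Treg genes, WT 1037, the library with the highest Tnfrsf9, had the highest level of the 7 libraries in 13 and the lowest in 2. WT 1032 had the highest in 12, CNS2KO 399 the lowest in 13 (ties counted for each library) and WT 402 the lowest in 11. These genes, which hold none of the 9 described above, had a mean difference from WT on the log2 scale of 0.39 in WT 1037, 0.25 in WT 1032 and -0.48 in WT 402, and of -0.83 and -0.19 in CNS2KO 399 and 408. CNS2KO 399, the library with the highest Fas, Tnfrsf4 and Tnfrsf18, thus had the lowest mean of the effector list. That mean includes genes of low count: Il10, Havcr2 and Ahr had 0 reads in CNS2KO 399. Reads fell on 14639 genes in CNS2KO 399, 14810 in WT 402 and 14861 in WT 1032, against 19206 in CNS2KO 408. The part of these differences in the effector means was not tested. Of the 30, 0 passed, 7 were positive and 23 negative (median -0.32), with Nt5e at -0.002, Icos at -0.26 and Gata3 at 0.087. In 3 of the 30 the groups did not overlap, against 6.76% of all genes. All 3 had CNS2KO below, against 3.0% of all genes. Of 13 resting T cell genes 0 passed, 4 were positive and 9 negative (median -0.18), with S1pr1 at -0.34 and Il7r at -0.23. In 2 of the 13 the groups did not overlap, also with CNS2KO below. The effector median was -0.21 without CNS2KO 399, -0.41 without CNS2KO 408 and -0.16 with WT libraries of 3-digit number only.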
